A study of Mus musculus with 6 samples.

Results

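The 10 genes described here encode chaperones of the cytosol in muscle: the heat-inducible HSP70 pair Hspa1a and Hspa1b, the constitutive HSP70 Hspa8, the J-domain co-chaperone Dnajb1, the HSP110 protein Hsph1, the inducible HSP90 Hsp90aa1, and the small heat shock proteins Hspb1, Hspb6, Hspb7 and Cryab. They were chosen by name, and each matched 1 of the 57010 genes in the deposited expression table. RNA sequencing was done on gastrocnemius, a calf muscle, from mice of the immunodeficient NSG strain (NOD/SCID/IL2Rγ-null). Every animal carried a subcutaneous flank xenograft of MDA-MB-231, a human breast cancer line, with knockdown (KD) of Rab27a, a GTPase of vesicle secretion. In the radiotherapy group (3 samples) the tumour received 10 Gy of X-rays once it had reached about 800 mm3, and muscle of the opposite side was collected 3 days later. The control group (3 samples) is labelled only as control, and it carried the same knockdown tumour. The labels give no age or sex, do not say how many clones made up the knockdown line, and name no separate animals within a group, so all p-values describe the spread between these samples, which may be technical. The host strain lacks mature lymphocytes, and neither group had a tumour without the knockdown.

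Molecular chaperones bind proteins that are unfolded or partly folded and keep them from aggregating. HSP70 proteins cycle between ATP-bound and ADP-bound states, J-domain proteins such as Dnajb1 deliver clients and trigger ATP hydrolysis, and HSP110 proteins such as Hsph1 exchange the nucleotide. The heat shock factor Hsf1 drives the inducible genes when unfolded proteins accumulate. Small heat shock proteins work without ATP, are abundant in striated muscle, and bind desmin, actin and filamin at the Z-disc.

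The unit of the table is TPM, a relative measure that corrects for transcript length, so levels of different genes can be set side by side. Each library summed to 1000000 TPM, which leaves sequencing depth unknown. Between 10890 and 11866 genes reached 1 TPM in radiotherapy libraries and between 10902 and 11650 in control libraries. The 9 markers of skeletal muscle were all present, with summed levels of 69577.7 to 117894.7 TPM in radiotherapy libraries and 139404.3 to 150927.1 TPM in control libraries. The radiotherapy 2 library stood apart at one end of the first principal component, with control 3 at the other. Radiotherapy 2 held the lowest value of 52.9% of the 11375 genes tested, while radiotherapy 3 held the highest value of 35.9%. Transcripts of the mitochondrial genome took 15.1% to 22.5% of TPM after radiotherapy and 8.93% to 13.7% in controls, which lowers the share left for other genes.

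The chaperones included both scarce and abundant transcripts. Cryab, whose product αB-crystallin protects desmin filaments, had the highest mean, 1485.6 ± 728 TPM (SD, n = 6 libraries). Hspa8 followed at 780.4 ± 195 TPM and Hspb6 at 704 ± 192 TPM. Cryab lay above Hspa8 in 5 of 6 libraries, and Hspa8 lay above Hspb6 in 3 of 6, so these last 2 genes did not differ beyond their spread. Hspb1 averaged 366 ± 103 TPM and lay below Hspb6 in 6 of 6 libraries, and Hspb7, at 171 ± 87.9 TPM, lay below Hspb1 in 6 of 6. The heat-inducible genes formed the scarce end. Hsph1 averaged 36.7 ± 21.8 TPM and Hsp90aa1 26.5 ± 10.95 TPM, and Hsph1 was the higher in 4 of 6 libraries. Hspa1b averaged 8.60 ± 10.0 TPM, Dnajb1 4.22 ± 2.43 TPM and Hspa1a 4.19 ± 5.39 TPM. The SDs of Hspa1a and Hspa1b over the libraries were larger than the differences between these last 3 means. That of Dnajb1 was smaller than the distance between its mean and that of Hspa1b. Within libraries, Hspa1b lay above Dnajb1 in 5 of 6 and Dnajb1 above Hspa1a in 5 of 6. Hspa1a lay below Hspa1b in each library.

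Chaperone mRNA did not separate radiotherapy from control muscle. All 10 genes passed the filter on low values (1 TPM or more in 3 or more libraries) and were tested with limma on log2(TPM + 1), with p-values adjusted by Benjamini-Hochberg over the 11375 genes. None passed an adjusted p of 0.05 in either direction, and neither did any other gene in the table, so the share called was 0%. At an unadjusted p under 0.05, 0 of the 10 were counted, where 3.82% of all tested genes were (435 genes). The groups overlapped for 10 of 10, where 9.24% of all tested genes had groups that did not overlap (1.7% higher and 7.54% lower after radiotherapy). The log2 fold change was negative for 5 of 5 stress-inducible members, of which Hsph1 and Hsp90aa1 turned positive under 3 other scalings, and positive for 4 of 4 small heat shock proteins. It was negative for 67.9% of all tested genes. The median over the 10 was −0.03, beside −0.11 over all genes tested, and it was positive, from 0.10 to 0.16, under those 3 scalings, which also turned Hspa8 positive. In bulk muscle, fewer cells of a type and less RNA per cell cannot be told apart.

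**Figure D1:**
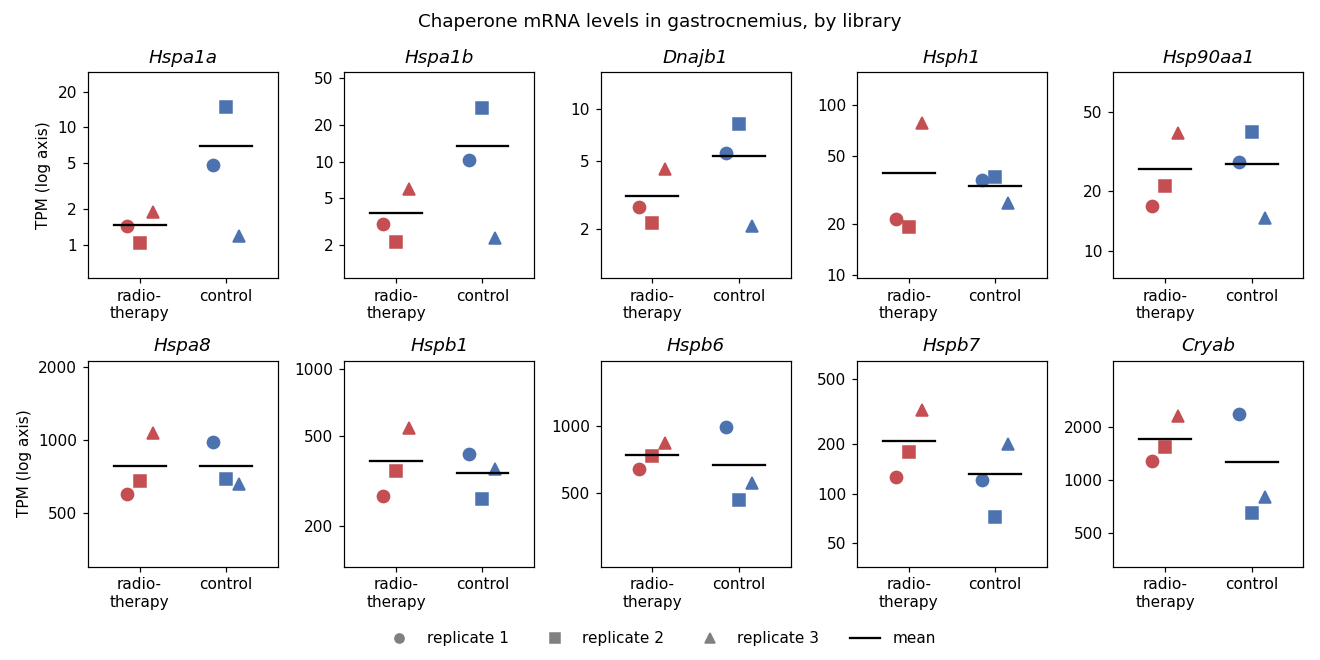
TPM of each chaperone gene (log axis) in 3 radiotherapy libraries (left, red) and 3 control libraries (right, blue), with symbols for the replicate number and a bar at the mean. For Hspa1a and Hspa1b the control libraries spread over 12.6-fold and 12.3-fold, wider than the distance between the group means, and the groups overlap in all 10 panels.

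The heat-inducible HSP70 genes Hspa1a and Hspa1b encode nearly the same protein, which is kept low in unstressed cells and made in bulk after heat or proteotoxic stress. Their coding sequences, read from GENCODE M21 transcripts (mouse GRCm38), differed at 11 of 1929 aligned positions (99.4% identity), where Hspa1a and Hspa8 shared 74.1%. Reads of such copies may be divided between them in ways the table does not show. The upstream sequences are shown because the pair varied together and because the 250 bases before each start site are almost the same. They are from RefSeq (GRCm38.p6), a newer build than the mm9 named for the expression values, at chr17:34972157-34972406 (minus strand) for Hspa1a and chr17:34959239-34959488 (minus strand) for Hspa1b. Capitals mark GAANNTTC, 2 inverted units of the heat shock element to which Hsf1 binds.
Hspa1a: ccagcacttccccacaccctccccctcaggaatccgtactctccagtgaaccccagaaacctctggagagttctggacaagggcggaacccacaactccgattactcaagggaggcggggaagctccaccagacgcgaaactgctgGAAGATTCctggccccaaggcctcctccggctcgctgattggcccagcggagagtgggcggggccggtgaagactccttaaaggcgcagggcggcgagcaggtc
Hspa1b: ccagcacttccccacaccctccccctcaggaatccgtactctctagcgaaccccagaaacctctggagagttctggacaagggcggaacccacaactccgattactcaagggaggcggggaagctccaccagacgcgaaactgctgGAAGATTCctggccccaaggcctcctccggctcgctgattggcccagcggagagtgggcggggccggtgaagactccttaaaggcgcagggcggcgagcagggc
Counted from 1 at the 5′ end, the differences from Hspa1a to Hspa1b were C44T, T47C and T249G, none of them in the capitals. The match began 104 bases before the start site in both genes.

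Control muscle held both the highest and some of the lowest values of this pair. Hspa1b was at 2.98, 2.13 and 5.93 TPM in radiotherapy libraries 1, 2 and 3, and at 10.2, 28.1 and 2.29 TPM in control libraries 1, 2 and 3. Control 2 was the highest and radiotherapy 2 the lowest, and control 3 lay inside the radiotherapy range. Hspa1a was at 1.44, 1.04 and 1.89 TPM in radiotherapy libraries and at 4.77, 14.8 and 1.18 TPM in control libraries. The order of the 6 libraries was that of Hspa1b, and within each library Hspa1a was 0.319 to 0.528 of the Hspa1b level. The log2 fold change, radiotherapy minus control on the log2(TPM + 1) scale, was −1.26 for Hspa1a (SE 0.59, 95% interval −2.60 to 0.07, limma adjusted p = 0.977). It was −1.21 for Hspa1b (SE 0.68, 95% interval −2.74 to 0.32, limma adjusted p = 0.977). Both intervals include 0 and also reach a loss of more than 4-fold. Without control 2 the values were −0.54 for Hspa1a and −0.46 for Hspa1b, and without control 3 they were −1.97 and −2.03.

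Because the copies cannot be counted apart with certainty, their sum is the safer value. It was 4.42, 3.17 and 7.82 TPM in radiotherapy libraries (mean 5.14 ± 2.41, SD, n = 3) and 15.0, 42.9 and 3.47 TPM in control libraries (mean 20.5 ± 20.3, SD, n = 3). The mean difference was −15.3 TPM (exact two-sided permutation p = 0.3), in a design whose smallest possible p is 0.1. Without control 2 the difference was −4.09 TPM, and without control 3 it was −23.8 TPM. Set against Hspa8 in the same library, which does not depend on how the library was scaled, the pair amounted to 0.737%, 0.467% and 0.732% of the Hspa8 level after radiotherapy and to 1.52%, 6.2% and 0.526% in controls. The mean log2 ratio differed by −1.43 (exact two-sided permutation p = 0.3), and by −0.50 without control 2.

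Dnajb1, the J-domain partner that works with inducible HSP70, followed the same libraries. It was at 2.69, 2.18 and 4.49 TPM after radiotherapy and at 5.60, 8.28 and 2.09 TPM in controls 1, 2 and 3. Control 2 was again the highest, and control 3 was the lowest of all. Its log2 fold change was −0.52 (SE 0.40, limma adjusted p = 0.977), and it was −0.17 without control 2 and −0.97 without control 3. Hsp90aa1, the inducible HSP90 that also folds myosin with its partner Unc45b, was at 16.7, 21.1 and 39.2 TPM after radiotherapy and at 27.9, 39.6 and 14.6 TPM in controls. Radiotherapy 3 and control 2 were about equally high for it, and the fold change was −0.07 (SE 0.41). For Hsph1, the nucleotide exchange factor of HSP70, radiotherapy 3 stood alone. Its TPM was 21.4, 19.3 and 78.5 in radiotherapy libraries and 36.4, 37.8 and 26.5 in control libraries, so the 3 controls lay between the extremes of the radiotherapy group. The Hsph1 fold change of −0.05 (SE 0.48) had an interval from −1.14 to 1.04, and without radiotherapy 3 the value was −0.68.

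Hsph1 carries a longer match to the heat shock element, shown because of the gene's high level in a single library. The match has 3 alternating units, TTCNNGAA overlapping GAANNTTC (capitals), and begins 37 bases after 1 of the 2 annotated start sites and 16 bases after the other, at chr5:149636287-149636308 (minus strand, GRCm38.p6, RefSeq).
Hsph1: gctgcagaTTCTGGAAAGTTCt
Each unit pair searched, GAANNTTC and TTCNNGAA, reads the same on both strands. Windows of 300 bases (250 before and 50 after a start site) were present for 7 of the 10 genes, 10 windows in all. At least 1 of the 2 pairs was in 6 of these 10 windows (60%) and in 15.1% of the 32851 mouse windows, and an alternation of 3 units was in 0.603% of all windows. Hspa1a and Hspa1b, and both windows of Hsph1, share most of their sequence. The windows with a match belonged to Hspa1a, Hspa1b, Hsph1, Hspb1 and Hspb6. Dnajb1 and Hspb7 had no match in any window, nor had the other window of Hspb6. Hsp90aa1, Hspa8 and Cryab had no window. A match describes the letters and does not show binding.

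Together, the 5 stress-inducible genes gave 45.3, 45.8 and 129.9 TPM in radiotherapy libraries and 84.9, 128.6 and 46.7 TPM in control libraries. Radiotherapy 3 and control 2 were nearly level at the top. The means were 73.7 ± 48.7 and 86.8 ± 41.0 TPM (SD, n = 3 each; exact two-sided permutation p = 0.7). The difference of −13.1 TPM turned positive without radiotherapy 1 (1.10 TPM), without radiotherapy 2 (0.847 TPM) or without control 2 (7.85 TPM).

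Hspa8, the constitutive HSP70 that folds new proteins and uncoats clathrin vesicles, was the most even member. It was at 599, 679 and 1067.8 TPM in radiotherapy libraries and at 984, 692 and 660.1 TPM in control libraries. The group means were 782 ± 251 and 779 ± 179 TPM (SD, n = 3 each). The log2 fold change was −0.02 (SE 0.27), with a 95% interval from −0.63 to 0.59. Small nucleolar RNA genes lie within Hspa8 in the RefSeq annotation, and their reads could not be separated here.

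The small heat shock proteins had higher mean levels after radiotherapy without passing the test. Cryab was at 1274.1, 1535.0 and 2293.2 TPM in radiotherapy libraries and at 2364.9, 649 and 797 TPM in control libraries. Control 1 was the highest of all 6 and the other 2 controls were the lowest. The group means were 1700.8 ± 529 and 1270.4 ± 951 TPM (SD, n = 3 each), and the log2 fold change was 0.62 (SE 0.45, 95% interval −0.39 to 1.64, limma adjusted p = 0.977). Without control 1 it was 1.20, without control 2 it was 0.26, without control 3 it was 0.41 and without radiotherapy 3 it was 0.39. Hspb7, a small heat shock protein found mainly in heart and skeletal muscle, was at 126, 179 and 324 TPM in radiotherapy libraries and at 122, 71.97 and 202 TPM in control libraries. Radiotherapy 3 was highest, and control 3 lay above radiotherapy 1 and 2. The log2 fold change of Hspb7 was 0.68 (SE 0.43, 95% interval −0.30 to 1.66, limma adjusted p = 0.977), and without control 2 or without radiotherapy 3 it was 0.31. Without control 3 it was 1.05.

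Hspb6 and Hspb1 differed less. Hspb6, also called Hsp20, is a phosphoprotein of actin filaments. It was at 639.6, 734 and 843 TPM in radiotherapy libraries and at 987, 465 and 555 TPM in control libraries. The radiotherapy values lay inside the control range, and the log2 fold change was 0.21 (SE 0.29). Hspb1, the mouse form of Hsp27, caps actin filaments and protects them under stress. It was at 272, 349 and 543 TPM in radiotherapy libraries and at 415, 263 and 357 TPM in control libraries. Radiotherapy 3 was the highest, control 2 the lowest, and the log2 fold change was 0.13 (SE 0.30). The sequence upstream of Hspb1 is shown because it alone among the windows held GAANNTTC at 2 places, in capitals, beginning 117 and 97 bases before the start site (chr5:135887669-135887918, plus strand, GRCm38.p6, RefSeq).
Hspb1: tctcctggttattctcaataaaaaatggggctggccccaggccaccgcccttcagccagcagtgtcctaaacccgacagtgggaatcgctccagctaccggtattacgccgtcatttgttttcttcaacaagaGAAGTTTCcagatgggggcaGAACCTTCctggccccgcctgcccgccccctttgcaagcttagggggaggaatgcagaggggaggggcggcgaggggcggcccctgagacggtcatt

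The sum of the 4 small heat shock proteins was 2311.2, 2797.6 and 4002.5 TPM in radiotherapy libraries and 3888.4, 1449.2 and 1910.8 TPM in control libraries. Control 2, the library with the most Hspa1a and Hspa1b, had the least of each of the 4 small heat shock proteins. The means were 3037.1 ± 871 and 2416.1 ± 1295.7 TPM (SD, n = 3 each; exact two-sided permutation p = 0.5). The difference of 621 TPM was 138 TPM without radiotherapy 3, 137.5 TPM without control 2, 368 TPM without control 3, 984 TPM without radiotherapy 1 and 1357.1 TPM without control 1. It was 1020.4 TPM with mitochondrial genes left out.

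**Figure D2:**
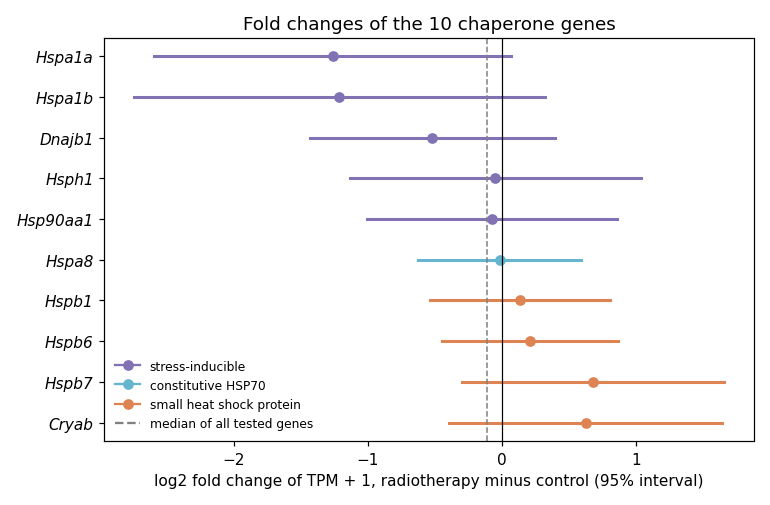
Log2 fold change of TPM + 1, radiotherapy minus control, for each chaperone gene (points) with its 95% limma interval (lines), coloured by role. The dashed line is the median of all tested genes, −0.11. All 10 intervals include 0, and they are widest for Hspa1a and Hspa1b.

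Replicates of the same group differed widely for several of these genes. The within-group SD of log2(TPM + 1) had a median of 0.68 over the 10, beside 0.31 over all 11375 genes tested. It was 1.19 for Hspa1b and 1.03 for Hspa1a, at percentiles 98.0 and 97.3 of all tested genes. Hsph1 (0.80), Cryab (0.77) and Hspb7 (0.71) lay at percentiles 95.6, 95.2 and 94.0. Hspa8 had the smallest SD of the 10, 0.38, at percentile 67.5. For Hspa1a and Hspa1b the spread came from the control group, where the highest library exceeded the lowest 12.6-fold and 12.3-fold, while in the radiotherapy group it did so 1.82-fold and 2.78-fold. For Hsph1 it came from the radiotherapy group, with 4.06-fold there and 1.43-fold among controls. These are descriptions, and a difference in spread between the groups was not tested.

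**Figure D3:**
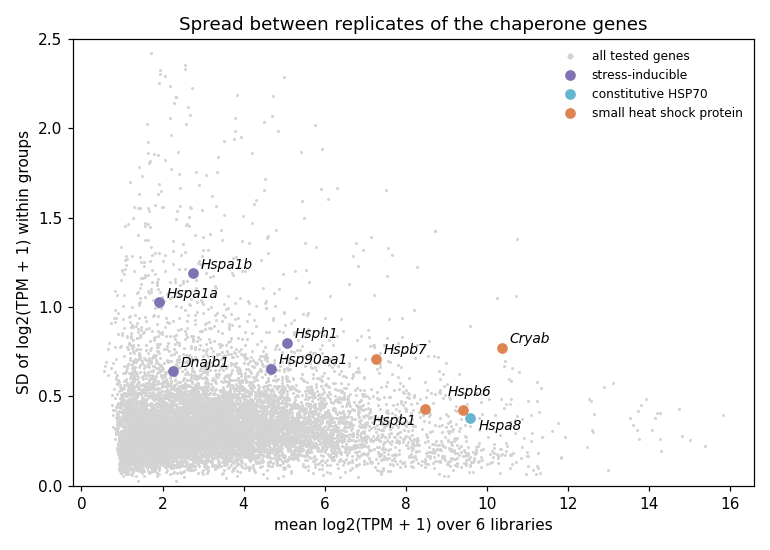
SD of log2(TPM + 1) within groups (vertical axis) against mean log2(TPM + 1) over 6 libraries (horizontal axis) for all tested genes (grey) and the chaperones (coloured by role). The chaperones lie between 0.38 and 1.19, above the median of 0.31; 53 tested genes with an SD over 2.5 are outside the axis.

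Several marker groups varied over the same libraries. The 5 red cell markers (globins and Alas2) were all highest in control 2, where they summed to 7203.1 TPM. Their sum ranged from 930 to 1617.5 TPM in radiotherapy libraries and from 3352.4 to 7203.1 TPM in control libraries. In control 3 the red cell sum, 3352.4 TPM, lay above every radiotherapy library. The sum of Hspa1a and Hspa1b there, 3.47 TPM, lay inside the radiotherapy range. The 12 immediate early genes, which respond within minutes to handling and stress, summed to 181 to 343 TPM after radiotherapy and to 174 to 690.4 TPM in controls. Their sum was lowest in control 3 and highest in controls 1 and 2, the same 2 libraries that were high in Hspa1a and Hspa1b. By gene, 8 of the 12 were highest in control 1 and 1 in control 2, where the pair peaked. Within the radiotherapy group, the immediate early sum was highest in library 1 and the pair in library 3. Slow fibre markers, 9 genes, summed to 1945.8 to 2430.4 TPM after radiotherapy and to 1047.7 to 2827.0 TPM in controls, and 7 of the 9 were highest in control 1, as were Cryab and Hspb6. The match did not extend to the low end: 9 of the 9 were lowest in control 3, while the 4 small heat shock proteins were lowest in control 2, and radiotherapy 3 had the most small heat shock protein mRNA but the lowest slow fibre sum of its group. Leukocyte markers, 8 genes, summed to 158 to 757 TPM after radiotherapy and to 280 to 1763.1 TPM in controls, and the 6 that were tested were all highest in control 1. None of the genes in these 4 marker lists was at 0 in any library. Of 6 fibroblast markers 5 were tested, all highest in control 1, and the list summed to 91.4 to 146 TPM after radiotherapy and to 89.7 to 202 TPM in controls. Of 6 adipocyte markers 5 were tested, all highest in radiotherapy 1 and lowest in control 3. Their list summed to 211 to 1611.0 TPM after radiotherapy and to 30.2 to 317 TPM in controls, with Lep at 0 in radiotherapy 2 and control 3. Endothelial markers (7 genes) summed to 468 to 844.5 TPM after radiotherapy and to 318 to 793 TPM in controls, and smooth muscle markers (6 genes) to 141 to 174 and to 93.6 to 161 TPM. The part of red cells, handling, fibre type or any of these cell types in the chaperone values was not tested.

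**Figure D4:**
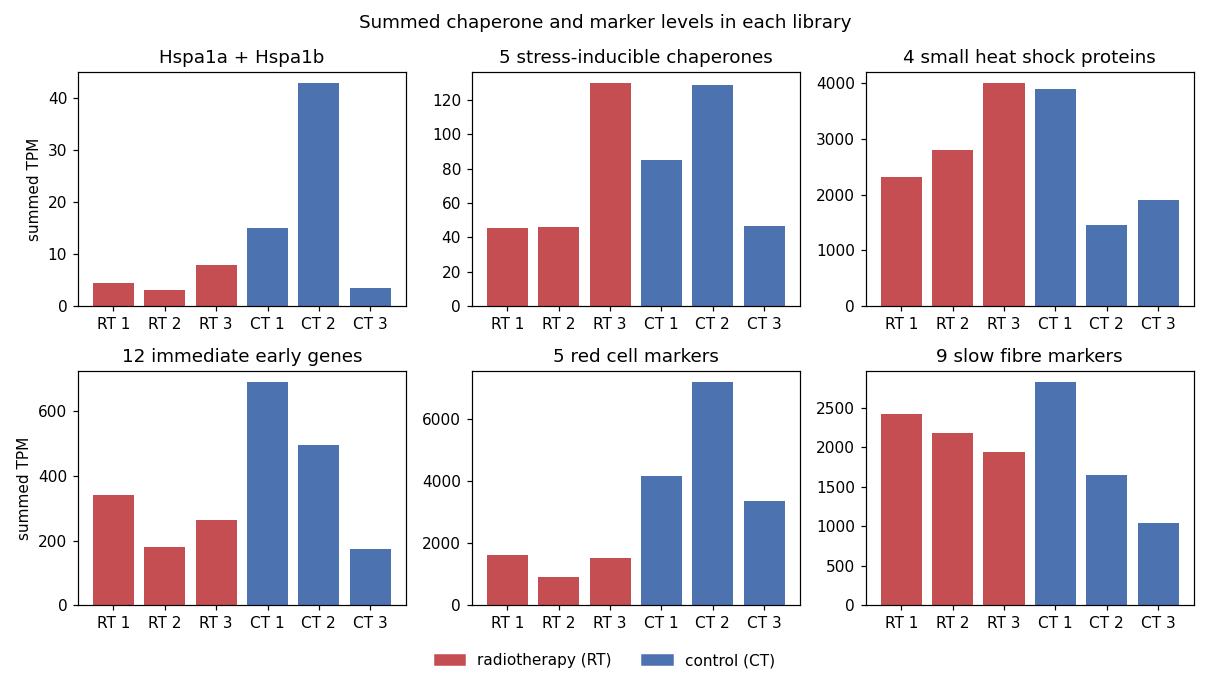
Summed TPM in each of 3 radiotherapy (RT, red) and 3 control (CT, blue) libraries for the Hspa1a and Hspa1b pair, the 5 stress-inducible chaperones and the 4 small heat shock proteins (top row), and for immediate early genes, red cell markers and slow fibre markers (bottom row). The pair and the red cell markers peak in control 2, at 42.9 and 7203.1 TPM, and the small heat shock proteins are lowest there, at 1449.2 TPM. In control 3 the red cell markers lie above every radiotherapy library, while the pair lies inside the radiotherapy range.

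The wider chaperone network was examined through 7 lists of 64 genes, of which 62 were tested and 0 passed limma's adjusted threshold. The exceptions to testing were Hspa12a, an HSP70 relative, and Cryaa, the lens αA-crystallin, which was at 0 TPM in 4 libraries. At an unadjusted p under 0.05, 0 of the 62 were higher and 1 was lower, beside 0.967% and 2.86% of all tested genes. The groups did not overlap for 2 of the 62, beside 9.24% of all tested genes. Log2 fold changes were positive for 20 and negative for 42 (67.7%), beside 67.9% negative among all tested genes, with a median of −0.10 beside −0.11. Under each of the 3 other scalings 35 were positive and 27 negative (43.5%), beside 50.2% to 52.3% negative among all genes, so the signs of these lists depend on the scaling. The highest library was radiotherapy 3 for 36 of the 62 (58.1%), beside 35.9% of all tested genes, and radiotherapy 2 held the lowest for 37.

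Hsf1, the heat shock transcription factor itself, was at 19.7, 19.9 and 32.9 TPM in radiotherapy libraries and at 23.5, 23.2 and 27.0 TPM in control libraries. Its log2 fold change was −0.06 (SE 0.27), and Hsf2, a related factor, and Hsbp1, an Hsf1-binding protein, gave 0.17 (SE 0.26) and −0.11 (SE 0.23). Hsf1 and Hsbp1 turned positive under the other scalings. Among other HSP70 and HSP110 genes, 6 of 7 tested, Hspa4 had the largest value at 0.49 (SE 0.33): its TPM was 28.1, 23.45 and 56.3 in radiotherapy libraries and 23.8, 24.5 and 22.4 in control libraries, with radiotherapy 3 far above the rest. Hspa4l, of the same HSP110 family, gave −0.21 (SE 0.21).

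Of HSP90 and its co-chaperones, 14 of 17 had negative values (82.4%, median −0.20), beside 67.9% of all tested genes. Under the other scalings 11 of 17 did (64.7%), beside 50.2% to 52.3% of all genes. Of the 17, 0 passed limma's adjusted threshold. Smyd1, a methyltransferase that works with HSP90 and Unc45b in building myosin filaments, was at 65.6, 40.2 and 61.5 TPM in radiotherapy libraries and at 75.0, 92.9 and 94.1 TPM in control libraries. Its groups did not overlap, and its log2 fold change was −0.66 (SE 0.26, limma adjusted p = 0.977), the only value of these 7 lists with an unadjusted p under 0.05. Unc45b, the myosin chaperone, gave −0.46 (SE 0.30). Hsp90ab1, the constitutive HSP90, was at 616, 399.7 and 1075.8 TPM in radiotherapy libraries and at 697, 767 and 892 TPM in control libraries (−0.28, SE 0.33), so it exceeded Hsp90aa1 in each library. Stip1, which links HSP70 to HSP90, gave −0.28 (SE 0.28).

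Of 9 J-domain genes, 4 were positive and 5 negative (median −0.04), and 8 were positive under the other scalings, Dnaja1 among them. Dnaja1, the other main cytosolic partner of HSP70, had a log2 fold change of −0.04 (SE 0.47), with Dnajb4 at 0.37 (SE 0.40) and Dnajb5 at −0.35 (SE 0.31). Of the 9 genes that exchange nucleotide on HSP70 or hand its clients on, 9 had negative values (median −0.21), where 67.9% of all tested genes did. Under the other scalings 6 or 7 had them, where 50.2% to 52.3% of all genes did. Bag3, which with Hspb8 sends damaged filamin to autophagy, was at 31.4, 33.3 and 64.04 TPM in radiotherapy libraries and at 39.9, 40.9 and 43.8 TPM in control libraries (−0.03, SE 0.30), and its sign turned under the other scalings. Bag2 gave −0.51 (SE 0.30) and Bag6 −0.38 (SE 0.24).

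Of the other small heat shock proteins, 3 of 4 were tested. Hspb8 was at 171, 178 and 306 TPM in radiotherapy libraries and at 191, 127 and 192 TPM in control libraries (0.33, SE 0.29). Hspb3 gave 0.35 (SE 0.31). Hspb2, which forms complexes with Hspb3, had a negative value, −0.35 (SE 0.28): it was at 45.6, 32.6 and 53.3 TPM in radiotherapy libraries and at 70.2, 52.9 and 45.0 TPM in control libraries. Hspb2 overlaps Cryab in the RefSeq annotation and Hspb6 overlaps Lin37, and without strand information reads of such pairs cannot be told apart. Cryab exceeded Hspb2 27.9-fold to 47.1-fold in radiotherapy libraries and 12.3-fold to 33.7-fold in control libraries.

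The chaperonin and prefoldin genes, which act in the folding of actin and tubulin, had a median of −0.12 over 14. Of these, 5 were positive and 9 negative (64.3%, beside 67.9% of all tested genes), and 7 or 8 were positive under the other scalings. Pfdn2 gave 0.48 (SE 0.31) and Pfdn1 −0.34 (SE 0.22), and the groups of Pfdn1 did not overlap. Radiotherapy 3 was the highest library for 10 of the 14. A further list of 8 genes covered cytoskeletal clients of the small heat shock proteins and their turnover, so not all of them are clients. Its median was −0.01, with 4 positive and 4 negative (5 positive with quantile normalization) and 0 past the test. Desmin, Des, was at 1367.5, 1205.0 and 2048.3 TPM in radiotherapy libraries and at 1814.6, 1445.2 and 2309.8 TPM in control libraries (−0.28, SE 0.26). Filamin C, Flnc, gave 0.14 (SE 0.42). Actn2, an α-actinin of the Z-disc, gave 0.45 (SE 0.25), and Synpo2, a Bag3 partner in filamin turnover, −0.71 (SE 0.32).

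**Figure D5:**
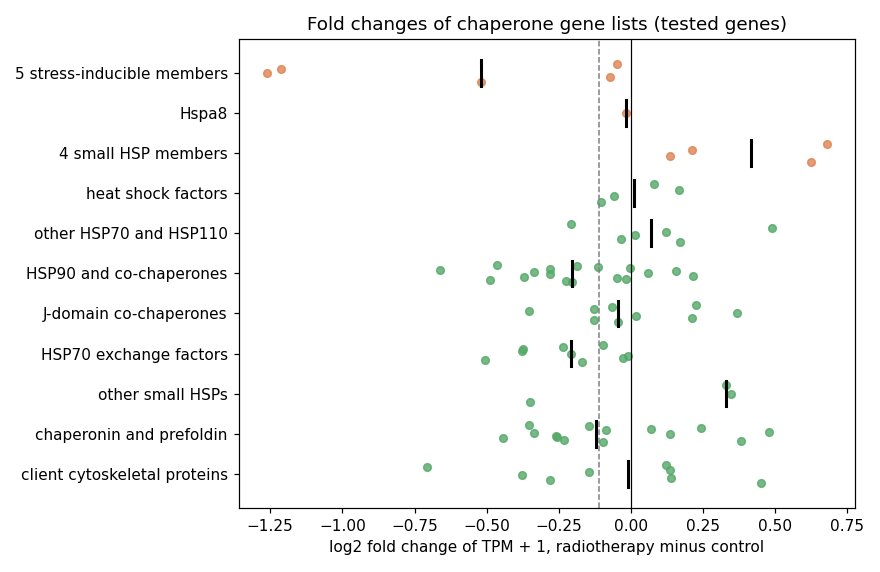
Log2 fold change of TPM + 1, radiotherapy minus control, of every tested gene (points) in the chaperone lists, with each list's median (black bar) and the median of all tested genes (dashed line, −0.11). The stress-inducible and small heat shock members have medians of −0.52 and 0.42 (Hsph1 and Hsp90aa1 changed sign under other scalings), and no point passed limma's adjusted threshold.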

How the data were processed

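The authors deposited 1 table of TPM values for 57010 genes with a column for each of the 6 samples. Per the submitters' processing notes, HISAT2, StringTie and RSEM were used with build mm9; their versions, the annotation, the strand setting and any filter are not stated in the labels. Libraries came from total RNA with a TruSeq kit, per the labels' protocols. TPM is relative and keeps no depth, so no counting interval or detection limit can be given.

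Groups followed the treatment label. Values were transformed to log2(TPM + 1), a pseudocount that understates changes of scarce genes such as Hspa1a. Genes reaching 1 TPM in 3 or more samples were tested with limma 3.58.1 in R 4.3.3 (lmFit, eBayes with trend, two-sided, group only), adjusted by Benjamini-Hochberg over 11375 genes. Sums and the log2 ratio were compared by exact permutation (scipy 1.17.1, Python 3.11.15, matplotlib 3.10.9). This gave 4 main p-values, and each of these measures also had a p-value under 9 alternatives. None of them was adjusted. The fit was checked on simulated data. The libraries were distinct: the closest pair shared 4.16% of its nonzero values exactly.

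Members and lists were chosen with earlier results of these data known. Beyond the members, the text names fixed panel genes, the 2 genes of smallest p in each of 8 lists, and Ldb3 and Fkbp5, chosen after their values were seen. Heat shock element matches were searched in RefSeq GRCm38.p6 windows. Alternatives were another pseudocount, other filters, scalings and limma settings, a replicate block, and each sample left out.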

Additional observations from a re-analysis of the deposited data

How the results depend on the processing

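Under the 15 alternatives to the gene test, 0 chaperone genes passed (lowest limma adjusted p among them 0.507). Over the whole table the count was 0 under each setting, except that leaving out 1 sample gave 0 to 1: Gm24497 without radiotherapy 1 (limma adjusted p = 0.0148) and Gm55635 without control 1 (limma adjusted p = 0.000948), both named after their values were seen. Genes at an unadjusted p under 0.05 numbered 435 of 11375, against 862 of 26621 with no filter on low values. With 1 sample left out they numbered 200 to 916 of 11375. Hspa1a, Hspa1b, Dnajb1, Hspb7 and Cryab kept their sign wherever tested, with 1 sample left out at −1.97 to −0.54, −2.03 to −0.46, −0.97 to −0.17, 0.31 to 1.05 and 0.26 to 1.20; the filter of 5 TPM removed Hspa1a and Dnajb1. Without control 3, Hspa1a, Hspa1b, Dnajb1 and Hspb7 had an unadjusted p under 0.05, as had Hspb7 without radiotherapy 1, Hsph1 without radiotherapy 3 and Cryab without control 1.

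Log2 fold changes near 0 turned positive with median-of-ratios scaling (Hsph1 0.09, Hsp90aa1 0.06, Hspa8 0.13), with quantile normalization (0.13, 0.08 and 0.18) and with mitochondrial genes left out (0.08, 0.05 and 0.12). These scalings moved the median of all genes from −0.11 to about 0. Leaving out 1 sample gave −0.68 to 0.30 for Hsph1, −0.45 to 0.24 for Hsp90aa1, −0.26 to 0.16 for Hspa8, −0.14 to 0.36 for Hspb1 and −0.01 to 0.53 for Hspb6. The summed stress-inducible genes then differed by −41.2 to 7.85 TPM. The summed small heat shock proteins differed by 838 TPM with median-of-ratios scaling and 1020.4 TPM with mitochondrial genes left out. The signs of whole lists under other scalings were counted after seeing the data. The causes were not tested.

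With the replicate number as a block, 0 genes passed limma, and the differences in summed TPM kept their values by construction, −13.1, 621 and −15.3, as did the log2 ratio of −1.43. Same-numbered samples did not deviate together (r of −0.0593, 0.0242 and −0.110 across genes), so the numbers were not taken to pair the samples. Unknown depth limits what can be said of the scarce genes.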

Other observations

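In the list of 8 genes for cytoskeletal clients and their turnover, the groups did not overlap for 1, beside 9.24% of all tested genes. This was Ldb3, a Z-disc protein chosen after its values were seen. It was at 558, 394 and 607 TPM in radiotherapy libraries and at 742, 625 and 630.1 TPM in control libraries (log2 fold change −0.38, SE 0.22, limma adjusted p = 0.977). Fkbp5, an HSP90 co-chaperone induced by glucocorticoids and likewise chosen after its values were seen, was at 42.3, 43.5 and 80.4 TPM in radiotherapy libraries and at 23.7, 44.2 and 88.6 TPM in control libraries, with control 3 the highest and control 1 the lowest.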
